A study of Mus musculus with 3 samples.

Results

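Acetylcholine reaches cortical neurons through muscarinic receptors, which are G protein-coupled, and nicotinic receptors, which are cation channels built from subunits. The genes described here are the 5 muscarinic receptor genes (Chrm1 to Chrm5) and 5 of the nicotinic subunit genes (Chrna3, Chrna4, Chrna5, Chrna7 and Chrnb2). They were taken by symbol from the count tables, where all 10 were among the 32531 gene rows.

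The samples were ribosome-bound RNA immunopurified from adult mouse cerebral cortex, without treatment, of the line Kcnip2-EGFP/Rpl10a (Kcnip2-TRAP NIDA115) on strain C57BL/6J. In such lines the ribosomal protein L10a carries a green fluorescent tag in cells that use Kcnip2 regulatory sequences, so an antibody to the tag pulls down their ribosomes. The 3 libraries form 1 group, with 11602248, 13635132 and 14174384 gene counts in replicates 1, 2 and 3. The labels do not say that they came from separate animals, so a p-value covers the spread among these libraries alone, and that spread may be technical. Without an input or untagged sample among those analysed here, the values are levels in the immunoprecipitate and not enrichment over whole cortex. Fewer cells that express a gene and less RNA per cell cannot be told apart in such samples.

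As to the cells sampled, all 8 pan-neuronal markers were at 1 CPM (reads per 1e6 reads counted in genes, after scaling) or more in each library, with a median of 224 CPM per kilobase of exon. The median was 39.5 for 7 GABAergic, 37.2 for 6 glutamatergic, 7.87 for 8 astrocyte and 3.23 for 7 microglial genes. The same limit was passed by 7 GABAergic, 5 glutamatergic, 8 astrocyte and 4 microglial genes of these. It was also passed by 6 of 7 oligodendrocyte and 5 of 5 oligodendrocyte precursor markers. The astrocyte genes spread widely, from 1.65 CPM per kilobase for Gja1 to 398 for Glul. Nuclear non-coding RNAs such as Malat1 were highest in replicate 1, where their log2 values lay 0.47 above their means over the 3 libraries by the median, against 0.04 in replicate 2 and -0.52 in replicate 3. Single genes moved further: Malat1 was at 8782, 2578 and 1801 CPM in replicates 1, 2 and 3, and Snhg11 at 815, 208 and 152. Both, and Meg3, were among the 11 genes that passed the test for variation between libraries described below.

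M1, M3 and M5 receptors (Chrm1, Chrm3, Chrm5) couple to Gq and phospholipase C, and in cortical neurons their activation closes M-current potassium channels. M2 and M4 receptors (Chrm2, Chrm4) couple to Gi/o, lower cyclic AMP and act at many presynaptic terminals. The main nicotinic receptor of the forebrain joins Chrna4 with Chrnb2, Chrna5 can enter it as an accessory subunit, and Chrna7 forms channels of its own kind.

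Gene structure separates the families. By the GENCODE M21 annotation (GRCm38, which is mm10), the coding sequence of each of the 5 muscarinic genes lay in 1 exon, against 6 coding exons in Chrna3, Chrna5 and Chrnb2, 7 in Chrna4 and 10 in Chrna7. Chrna5, Chrna3 and the further subunit gene Chrnb4 stand side by side on chromosome 9, with 2331 bases between the first pair and 1591 between the second. The annotated models of Chrm4 and Chrm5 exceeded their coding sequence by 3 bases only, whereas those of Chrm1, Chrm2 and Chrm3 added 5107, 4655 and 4486 bases. A level per kilobase of Chrm4 or Chrm5 is thus divided by a shorter length than the other genes' by annotation, and the rank of Chrm5 among the 10 genes was 9 per kilobase and 10 by CPM, changing place with Chrna3.

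Promoter sequence is shown for 3 of the genes, and its relation to their levels was not tested. Chrm4 is the gene whose RefSeq start lies 5060 bases before the GENCODE model, Chrnb2 is a well-represented nicotinic subunit, and Chrna3 is a scarce member of the chromosome 9 cluster. Each run is the 250 bases before the RefSeq start (GRCm38.p6), 5′ to 3′ on the gene's strand. Capitals mark GC boxes, searched as GGGCGG on both strands with overlaps kept.
Chrm4 (chr2:91921939-91922188, plus strand): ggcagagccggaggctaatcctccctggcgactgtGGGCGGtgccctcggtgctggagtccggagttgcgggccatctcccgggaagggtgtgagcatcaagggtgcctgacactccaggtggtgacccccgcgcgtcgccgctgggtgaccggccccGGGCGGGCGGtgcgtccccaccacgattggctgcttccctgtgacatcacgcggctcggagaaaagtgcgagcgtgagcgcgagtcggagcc
Chrnb2 (chr3:89764633-89764882, minus strand): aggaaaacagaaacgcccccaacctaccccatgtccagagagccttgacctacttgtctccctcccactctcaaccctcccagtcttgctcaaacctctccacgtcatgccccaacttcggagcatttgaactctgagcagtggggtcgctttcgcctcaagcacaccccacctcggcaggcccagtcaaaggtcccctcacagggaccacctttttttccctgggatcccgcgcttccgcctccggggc
Chrna3 (chr9:55026563-55026812, minus strand): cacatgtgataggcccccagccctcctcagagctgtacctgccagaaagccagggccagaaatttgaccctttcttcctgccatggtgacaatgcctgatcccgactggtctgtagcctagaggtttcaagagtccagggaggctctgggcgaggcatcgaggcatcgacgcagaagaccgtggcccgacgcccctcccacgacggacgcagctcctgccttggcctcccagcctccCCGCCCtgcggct
The Chrm4 window held 3 GC boxes, 2 of which overlap, the Chrna3 window 1 and the Chrnb2 window 0. Of 32851 RefSeq windows of the same length, 32.7% held at least 1. The CG dinucleotide occurred 26 times in the Chrm4, 13 times in the Chrna3 and 10 times in the Chrnb2 window, against a median of 6 over all windows. RefSeq windows matched 9 of the 10 genes, and Chrm1 had no entry. None of the 10 windows of these 9 genes held a TATA box (TATAAA, either strand), which 12.4% of all windows did. In the other windows the CG dinucleotide occurred 2 times in Chrm5, 10 in Chrm3, 12 in Chrm2, 24 in Chrna4 and 25 in Chrna7. The pair of Chrna5 windows held the CG dinucleotide 3 and 17 times. In the same order these held 0 and 4 GC boxes. The Chrna4 window held 3 GC boxes, those of Chrm2 and Chrna7 1 each, and those of Chrm3 and Chrm5 0.

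Of the 10 receptor genes, 7 were at 1 CPM or more in all 3 libraries: Chrm1, Chrm2, Chrm3, Chrm4, Chrna4, Chrna7 and Chrnb2. That limit was passed by 37.3% of all gene rows and by 64.9% of rows with a read. The other members, Chrm5, Chrna3 and Chrna5, were not empty, with 9, 17 and 30 counts over the 3 libraries. Values per kilobase divide CPM by the union of annotated exons.

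**Figure D1:**
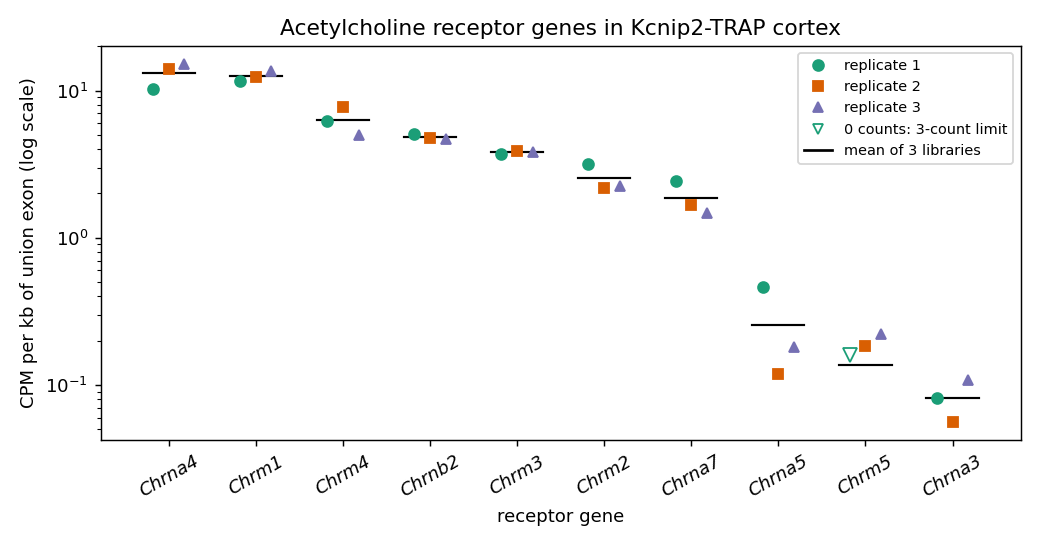
Level of each receptor gene in CPM per kilobase of union exon (log axis), 1 symbol per library, with the mean as a bar and the limit that a count of 0 allows as an open triangle. Chrna4 and Chrm1 lie highest at means of 13.1 and 12.5, and Chrna5, Chrm5 and Chrna3 lie below 1 in every library.

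Among the Gq-coupled receptors, Chrm1 (ENSMUSG00000032773.9, chromosome 19, 8663789 to 8683587, plus strand), the main muscarinic receptor of forebrain pyramidal neurons, was at 74.9, 80.7 and 87.8 CPM in replicates 1, 2 and 3. The 3 libraries lay close together, with a mean of 12.5 ± 0.992 CPM per kilobase (SD, n = 3). Chrm3 (ENSMUSG00000046159.16, chromosome 13, 9875486 to 10360847, minus strand), which shares this coupling, was at 23.2, 24.4 and 23.8 CPM, or 3.80 ± 0.0947 per kilobase. Its coefficient of variation of 2.49% was the lowest of the 10 genes. Per kilobase Chrm1 exceeded Chrm3 by 1.71 ± 0.10 on the log2 scale, a 3.27-fold difference that was positive in 3 of 3 libraries and was also positive by counts (1.76) and per coding length (2.12).

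Chrm5 (ENSMUSG00000074939.3, chromosome 2, 112479171 to 112480769, minus strand), best known from midbrain dopamine neurons, had 0, 4 and 5 counts. The 0 in replicate 1 allows up to 0.256 CPM at 3 counts and up to 0.314 CPM as the upper end of the exact 95% Poisson interval. The 4 and 5 counts correspond to 0.295 and 0.354 CPM, with exact 95% Poisson intervals of 0.0805 to 0.756 and 0.115 to 0.827. These intervals, like all counting limits here, cover counting error only. Chrm3 had 26.7 times the summed counts per kilobase of Chrm5 (exact 95% interval 13.98 to 58.5), and 104 times by summed counts (54.7 to 229). Of 4 midbrain dopamine markers, 2 passed 1 CPM in all libraries, namely Th and Slc18a2. The dopamine transporter gene Slc6a3 had 0, 0 and 5 counts.

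Of the Gi/o-coupled receptors, Chrm2 (ENSMUSG00000045613.9, chromosome 6, 36388084 to 36528414, plus strand) was at 19.2, 13.2 and 13.6 CPM, highest in replicate 1. Chrm4 (ENSMUSG00000040495.4, chromosome 2, 91927249 to 91928688, plus strand), a receptor also prominent in striatum, was at 8.95, 11.2 and 7.16 CPM, highest in replicate 2. Which of them was higher depended on length. Per kilobase of annotated exon Chrm2 was below Chrm4 in 3 of 3 libraries (log2 ratio -1.33 ± 0.45), whereas by counts it was above (0.74), and per coding length also (0.78). The summed counts were 596 for Chrm2 and 358 for Chrm4. Of 10 striatal neuron markers, 8 passed 1 CPM in all libraries, and their summed level was 347, 479 and 339 CPM in replicates 1, 2 and 3, highest in replicate 2 as Chrm4 was. Penk, at 93.4, 171 and 122 CPM, and Pde10a, at 101, 137 and 94.7 CPM, made up much of that sum. Of the 10 markers 6 were highest in replicate 2, and 4 (Tac1, Rgs9, Adora2a and Gpr6) were highest in replicate 1. Over all 12509 genes tested for variation, 4108 were highest in replicate 2. Among markers so tested, 6 of 8 astrocyte and 4 of 5 layer 6 genes were also highest there. For glutamatergic and GABAergic markers it was 1 of 5 and 0 of 7. The part of the striatal markers in the Chrm4 value was not tested. On the opposite strand of Chrm2 lies 9330158H04Rik, which shares 2.35% of the Chrm2 exon bases and was at 1.05 ± 0.633 CPM.

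As a family, the Gq-coupled receptors made up 65.0% ± 5.05 (SD, n = 3) of the muscarinic level per kilobase, at 61.9%, 62.3% and 70.9% in replicates 1, 2 and 3. Chrm1 supplied 49.5% ± 4.45, Chrm4 24.9% ± 4.69, Chrm3 15.04% ± 0.330, Chrm2 10.1% ± 2.46 and Chrm5 0.530% ± 0.470. The Chrm4 share rests on its short model. Without division by length it was 7.04% ± 1.63, and the Gq-coupled share was 81.1% ± 3.32.

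**Figure D2:**
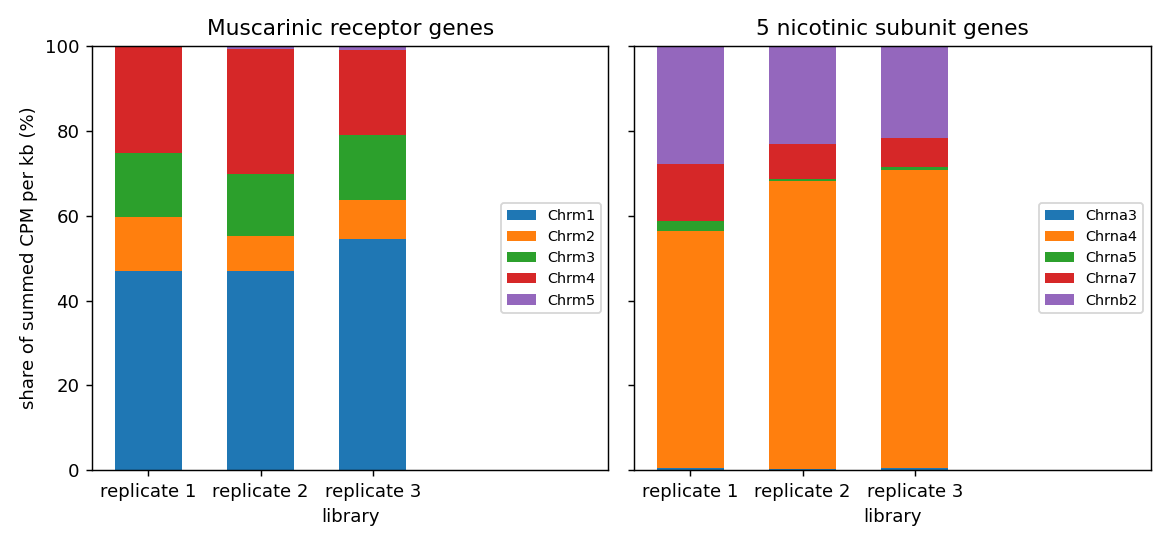
Share of the summed level per kilobase (percent, vertical axis) that each gene supplied in each library, for the 5 muscarinic genes and the 5 nicotinic members. Chrm1 is the biggest muscarinic block in every library and Chrna4 the biggest nicotinic one, at 55.8%, 67.9% and 70.2% in replicates 1, 2 and 3.

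Among the nicotinic genes, Chrna4 (ENSMUSG00000027577.14, chromosome 2, 181018380 to 181043546, minus strand), the principal ligand-binding subunit of forebrain receptors, was at 51.1, 70.1 and 76.4 CPM. Replicate 1 was the low library, below both others. Chrnb2 (ENSMUSG00000027950.7, chromosome 3, 89746195 to 89764632, minus strand), its partner, was at 42.4, 39.9 and 39.2 CPM, so its libraries nearly coincided. Per kilobase the means were 13.1 ± 2.62 for Chrna4 and 4.83 ± 0.206 for Chrnb2, and Chrna4 was higher by 1.42 ± 0.36 on the log2 scale in 3 of 3 libraries. The log2 ratio was 1.01, 1.55 and 1.70 in replicates 1, 2 and 3, 0.68 on average by counts and 0.86 per coding length. Chrnb2 shares 16.3% of its exon bases with Adar on the opposite strand, which was at 111 ± 19.3 CPM. Whether counting used strand is not stated by the labels, so reads from that stretch cannot be assigned to either gene.

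Chrna7 (ENSMUSG00000030525.8, chromosome 7, 63098692 to 63212569, minus strand), the subunit of homomeric receptors with high calcium permeability, was at 11.0, 7.53 and 6.66 CPM. It was highest in replicate 1 and averaged 1.86 ± 0.509 CPM per kilobase. Chrna7 was below Chrna4 in 3 of 3 libraries by every length used (log2 ratio -2.80 ± 0.67 per kilobase). Together Chrna4 and Chrnb2 supplied 88.8% ± 4.52 of the level of the 5 nicotinic members, against 9.45% ± 3.47 for Chrna7.

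The chromosome 9 genes were scarce. Chrna5 (ENSMUSG00000035594.10, 54980880 to 55007779, plus strand), an accessory subunit known from layer 6 neurons, had 17, 5 and 8 counts, or 1.45, 0.369 and 0.567 CPM. The exact 95% Poisson intervals were 0.844 to 2.32, 0.120 to 0.862 and 0.245 to 1.12 CPM, and replicate 1 was the highest. Chrna3 (ENSMUSG00000032303.7, 55010111 to 55026562, minus strand), a subunit of autonomic ganglia and the medial habenula, had 5, 4 and 8 counts, or 0.426, 0.295 and 0.567 CPM. Chrna3 had 0.336 times the summed counts per kilobase of Chrna5 (exact 95% interval 0.174 to 0.630), and by summed counts the ratio was 0.567 with an interval of 0.293 to 1.06 that includes 1. Without replicate 1 the counts were 12 and 13, and the ratio was 0.548 per kilobase and 0.923 by counts. Chrnb4, at the other end of the cluster, had 0, 17 and 8 counts. All 5 layer 6 markers passed 1 CPM in each library, with summed levels of 139.5, 189 and 157 CPM in replicates 1, 2 and 3. Tle4, at 79.2, 89.4 and 86.1 CPM, made up much of that sum. Tle4, Foxp2 and Ntsr1 were lowest in replicate 1, where Chrna5 was highest. Syt6 was lowest in replicate 3 at 17.0 CPM, and Ctgf in replicate 2 at 4.36 CPM. The part of these markers in the Chrna5 value was not tested. Of 5 medial habenula markers 2 passed, namely Nwd2 and Tac2, while Gpr151 had 0, 1 and 2 counts and Pou4f1 had 0, 6 and 0.

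Among the 9 neighbouring pairs in the order of mean level per kilobase, the libraries of 5 pairs overlapped. The order ran Chrna4, Chrm1, Chrm4, Chrnb2, Chrm3, Chrm2, Chrna7, Chrna5, Chrm5, Chrna3. Chrna4 and Chrm1 exchanged places between libraries (log2 ratio -0.18, 0.17 and 0.17), and the pairs Chrm4 and Chrnb2, Chrm2 and Chrna7, Chrna5 and Chrm5, and Chrm5 and Chrna3 overlapped as well. The 4 pairs whose libraries did not overlap were Chrm1 over Chrm4, Chrnb2 over Chrm3, Chrm3 over Chrm2 and Chrna7 over Chrna5. The step from Chrna7 to Chrna5 was the widest, at 2.78 ± 0.54 on the log2 scale. Chrm4 ranked number 3 per kilobase and number 6 by counts. By counts Chrm1 ranked number 1 and Chrna4 number 2. Per kilobase of coding length Chrm1 was also above Chrna4, at means of 58.8 and 34.3 CPM.

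**Figure D3:**
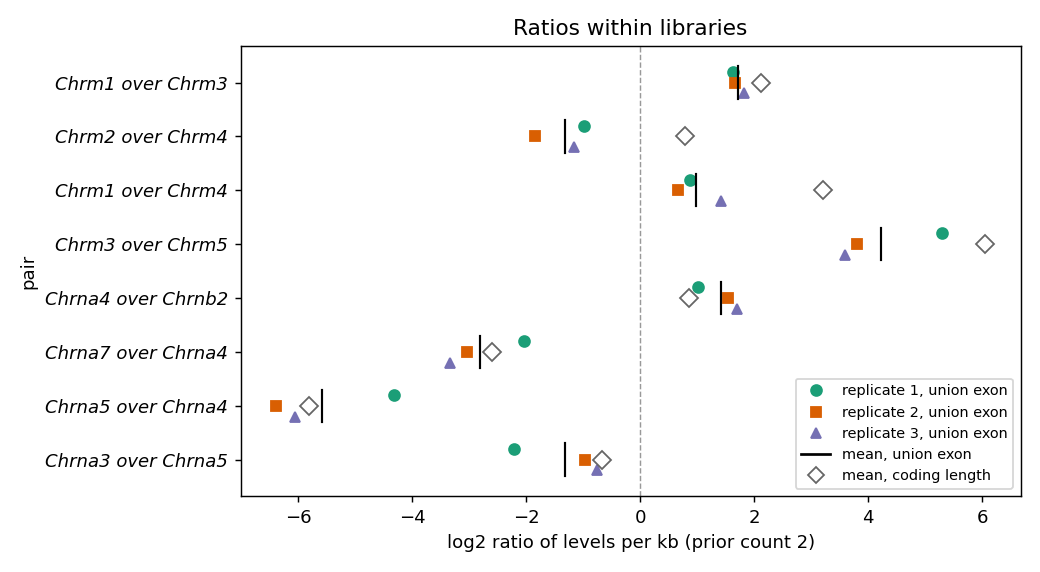
Log2 ratio of levels per kilobase for 8 pairs of receptor genes (horizontal axis), 1 symbol per library, with the mean as a bar and the mean per coding length as an open diamond. Every pair keeps its side of 0 in all 3 libraries per kilobase, and Chrm2 over Chrm4 changes side per coding length, from -1.33 to 0.78.

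All 8 pairs compared by receptor class or partnership had the same sign in 3 of 3 libraries per kilobase. An exact two-sided sign-flip permutation test over 3 libraries cannot go below p = 0.25, which was its value for every pair, so none could pass a threshold of 0.05. Chrm1 exceeded Chrm4 by 0.98 ± 0.39 on the log2 scale per kilobase and by 3.15 by counts. Chrna5 was below Chrna4 at 0.0183 times its summed counts per kilobase (exact 95% interval 0.0124 to 0.0263). Without replicate 1, which held 17 of the 30 Chrna5 counts, that ratio was 0.0103, from 13 and 2027 counts.

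Against all genes with a read and a length, Chrna4 lay at the 82.7 and Chrm1 at the 81.9 percentile of mean level per kilobase. Chrm4, Chrnb2 and Chrm3 lay at the 69.8, 64.8 and 60.1 percentile, Chrm2 and Chrna7 near the middle at 52.4 and 46.9, and Chrna5, Chrm5 and Chrna3 at 22.0, 16.5 and 12.7. Among 12078 other genes past the count filter, those near Chrm1 in level per kilobase over the 3 libraries included Trp53 and Hnrnpu, with root mean square log2 differences of 0.0192 and 0.0222. For Chrna4 the nearest were Adcy2, an adenylyl cyclase gene, Sun2 and Apoe, at 0.0173, 0.0388 and 0.0673. With 3 libraries and this many genes such nearness is a description of level only.

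No receptor gene passed the test for variation between libraries beyond that of genes at its level. Of 12509 genes tested with edgeR's quasi-likelihood fit, 0.0879% passed (11 genes, Benjamini-Hochberg adjusted over all), and of the 7 receptor genes tested 0 passed, with 0 at an unadjusted p under 0.05, which 5.72% of the genes tested reached (715 genes). Chrna4 came nearest, with an F ratio of 2.98 to the fitted trend (edgeR unadjusted p = 0.0695, adjusted p = 0.912). At the level of Chrna4 the fitted biological coefficient of variation, which leaves counting error out, was 12.6%. The coefficient of variation of its CPM, which includes counting error, was 19.9%. Chrnb2 and Chrm3 varied least, at 4.25% and 2.49%. Chrm5, Chrna3 and Chrna5 fell under the count filter and were not tested.

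The libraries nevertheless ordered the genes differently. Chrm2, Chrna7 and Chrnb2 were highest in replicate 1, with log2 deviations there of 0.34, 0.42 and 0.07, and Chrm1, Chrm3 and Chrna4 were lowest there at -0.11, -0.04 and -0.34. Of all genes tested, 36.4% were highest and 36.6% lowest in replicate 1, so 3 of 7 each way is near the background. Marker lists moved as well: the median log2 deviation in replicates 1, 2 and 3 was -0.23, 0.05 and 0.19 for glutamatergic genes, 0.17, -0.05 and -0.07 for GABAergic genes, and -0.35, 0.33 and 0.01 for astrocyte genes. The GABAergic subtypes differed among themselves. In replicates 1, 2 and 3 parvalbumin interneuron markers were at 0.32, -0.06 and -0.27. Somatostatin interneuron markers went the other way, at -0.29, 0.04 and 0.16, and Vip interneuron markers were at -0.001, -0.05 and 0.07. The part of these marker lists in the receptor values was not tested.

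**Figure D4:**
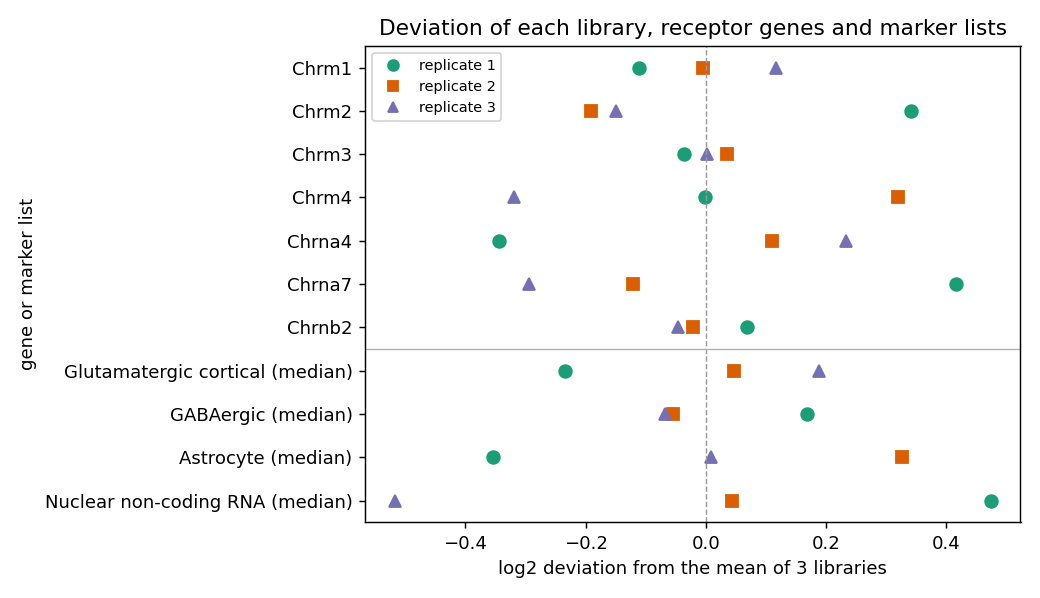
Log2 deviation of each library from the mean of the 3 libraries (horizontal axis) for the 7 receptor genes tested, and the median of the same for 4 marker lists. Chrna4 is lowest in replicate 1 at -0.34, where glutamatergic genes are at -0.23 and astrocyte genes at -0.35. Chrm2 and Chrna7 are highest there, where GABAergic genes are at 0.17 and nuclear RNAs at 0.47.

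Other nicotinic subunits added little. Of 11 further subunit genes, 1 was at 1 CPM or more in all libraries, Chrnb1, a muscle-type subunit, at 2.05, 3.03 and 2.20 CPM. That limit was passed by 37.3% of all gene rows and 64.9% of rows with a read. Chrna9 and Chrna10, the cochlear subunits, and Chrne and Chrng, of the muscle receptor, had no count in any library, so that a level of up to 0.213 to 0.256 CPM is allowed. Chrna10 shares 39% of its exon bases with Art1 on the opposite strand, so with strand handling not stated its 0 may miss reads from that stretch. Chrnd, another muscle subunit, had 1 count in all. Chrnb3 had 4, 33 and 35 counts and was thus lowest in replicate 1, while Chrna6, which often pairs with it, had 12, 0 and 6 and was highest there. Chrna2, a subunit known from somatostatin interneurons of deep layers, had 5, 2 and 10 counts. The 5 members supplied 92.1% ± 0.942 of the level per kilobase of all 16 nicotinic subunit genes.

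Genes that make, load and break down acetylcholine had a low median level in these immunoprecipitates. Of 7, 4 were at 1 CPM or more in all libraries (57.1%), near the 64.9% of genes with a read. The list median was 0.458 CPM per kilobase, against 2.24 for all genes with a read. Ache, the acetylcholinesterase gene, led at 7.84, 9.16 and 9.49 CPM and Prima1, which anchors the enzyme to membranes, had 6, 27 and 18 counts. Chat, which synthesizes acetylcholine, was at 1.45, 1.26 and 2.83 CPM, and Colq, a collagen-like tail of the enzyme, had 0, 0 and 14 counts. Among 7 cholinergic neuron markers, 2 passed 1 CPM in all libraries (Chat and the choline transporter gene Slc5a7), and the vesicular transporter gene Slc18a3 had 2, 9 and 7 counts.

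Genes that assemble or modulate nicotinic receptors were all present. The 8 chaperone and Ly6-family genes each passed 1 CPM in all libraries, which 64.9% of genes with a read did. Their list median was 10.9 CPM per kilobase. Lynx1, a membrane-bound brake on nicotinic receptors, led at 412, 388 and 319 CPM, followed per kilobase by Ly6e at 132, 117 and 126. Lypd1 was lowest, at 0.847 ± 0.104 CPM per kilobase.

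Signalling partners of the muscarinic receptors mostly passed 1 CPM in all libraries as well, beside 64.9% of genes with a read. Of 7 Gq and phospholipase genes, 6 passed 1 CPM in all libraries; Plcb1, the phospholipase C that M1 receptors use in forebrain, led at 613, 680 and 715 CPM, and Gnaq, the Gq alpha subunit, was next per kilobase at 47.5 ± 5.15. Gna14 was lowest, with 0, 1 and 7 counts. All 5 Gi/o alpha subunit genes passed, with Gnai1 and Gnao1 highest per kilobase at 317 ± 14.1 and 209 ± 16.3 and Gnai3 lowest at 7.71 ± 1.21. Of 7 effector potassium channel genes, 6 passed; the GIRK gene Kcnj3 led at 32.0 ± 2.24 CPM per kilobase, and Kcnj5 was lowest with 5, 1 and 3 counts. None of the genes in these 6 related lists that were tested passed edgeR's test for variation between libraries.

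**Figure D5:**
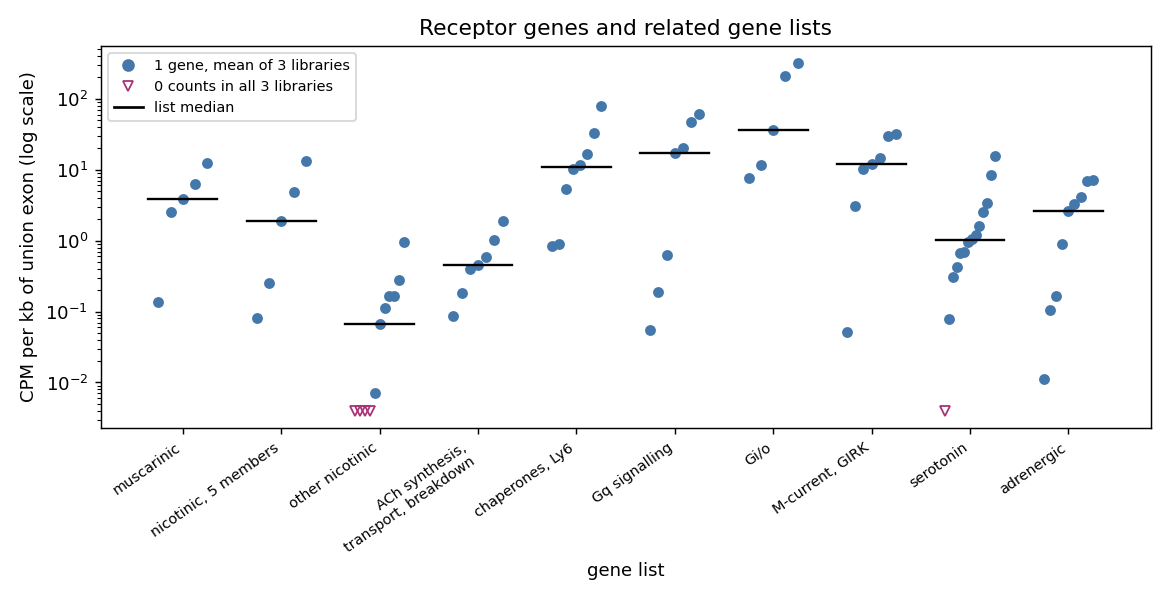
Mean level per kilobase of each gene (log axis) in the receptor families and related lists, with list medians as bars and genes without a count as open triangles. The medians range from 0.0657 for the other nicotinic subunits to 36.2 for Gi/o genes, and the 5 muscarinic genes have a median of 3.80.

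Beside 2 other neuromodulator receptor families, the 10 acetylcholine receptor genes had a median of 3.17 CPM per kilobase, against 2.59 for 9 adrenergic and 1.01 for 14 serotonin receptor genes, and 2.24 for all genes with a read. At 1 CPM or more in all libraries were 7 of 10, 6 of 9 and 9 of 14. These shares lie near the 64.9% of genes with a read, and the families were not tested against each other. The 10 genes leave out 11 further nicotinic subunit genes, whose median was 0.0657 CPM per kilobase. All 16 nicotinic subunit genes had a median of 0.138, and 4 of 16 were at 1 CPM or more in all libraries. The serotonin list, in contrast, kept Htr3b, which had no count. The median of 3.17 thus depends on which nicotinic subunits were chosen, and the order of these medians does not rank whole families.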

How the data were processed

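The authors deposited 1 table of read counts per gene symbol for each of 3 libraries, not normalized. The submitters' processing notes name the aligner STAR 2.0.0e, the counter HTSeq and the build mm10. Counting mode, strand handling and gene annotation are not given in the sources here. The counter's special rows and a row named unknown, with 0 reads, stayed out of library sizes; 61.9% to 70.7% of tallied reads fell in genes.

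CPM used TMM-scaled library sizes (edgeR 4.0.16, R 4.3.3), in which 3 counts correspond to 0.256, 0.222 and 0.213 CPM. Union exon, coding and longest-transcript lengths came from GENCODE M21, found for 23113 rows through the symbol and for 735 through a former one. Log2 ratios used a prior count of 2. Variation between libraries was tested with glmQLFit (robust, intercept only) on genes past filterByExpr (minimum count 10), comparing each gene's quasi-dispersion with the trend by an F ratio (Benjamini-Hochberg at 0.05), and was tested on simulated data. DESeq2 1.42.0 size factors were an alternative.

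All members are described. From each related list the 2 genes highest per kilobase, the lowest and those without a count are named, with markers where they bear on a member. Some genes that this rule names are not reported here. Further genes of these lists were chosen after their values were seen. Members and lists were chosen with earlier results of these data known.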

Additional observations from a re-analysis of the deposited data

How the results depend on the processing

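The 7 receptor genes at 1 CPM or more stayed 7 in number with DESeq2 size factors, with library totals, at limits of 0.5 and 5 CPM and without each replicate in turn, and the number that varied between libraries stayed 0 under every alternative tried. Over all genes that number was 11 and depended on the setting: 66 with no filter on low counts, 5 with a non-robust fit, and 4 to 9 without 1 replicate, the 4 being without replicate 2. Of 64 recomputed pair ratios 62 kept their sign. The ratio of Chrm2 to Chrm4 reversed, to 0.74 with no division by length and 0.78 per coding length, as the annotated Chrm4 model holds almost no sequence beyond its coding part. The Gq-coupled share of the muscarinic level moved to 81.1% with no division by length and 80.6% per coding length. The 5 genes highest per kilobase shared 4 with those by counts or per coding length. No paired analysis was possible because the series has 1 group. Depth limits Chrm5, Chrna3 and Chrna5, whose counts per library were between 0 and 17.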
